A study of Mus musculus with 9 samples.

Results

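The 7 hormone genes of the pancreatic islet were those for insulin (Ins1 and Ins2), amylin (Iapp), glucagon (Gcg), somatostatin (Sst), pancreatic polypeptide (Ppy) and peptide YY (Pyy). They were followed through 9 RNA libraries. The genes were chosen by symbol, and all 7 were found among the 23329 genes of the count table. RNA came from pancreatic islets of male mice. The labels give 4 libraries, titled as controls, the genotype Pdx1+/-, and 5 libraries, titled as mutants, the genotype Pdx1A4, a name they do not explain. The labels state no treatment, time or age, and nothing in the labels ties a library to a separate animal, so the p-values measure the spread between libraries, which may be technical. The control label is itself heterozygous for Pdx1, so the comparison is not one with wild type. The libraries held 6092010 to 9163253 counts each.

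Each islet hormone is made as a precursor that is cut into the active peptide inside secretory granules. Beta cells make insulin, from Ins1 and Ins2 in the mouse, and amylin (islet amyloid polypeptide), from Iapp. Alpha cells make glucagon from Gcg, delta cells make somatostatin from Sst, and gamma cells make pancreatic polypeptide from Ppy. Pyy encodes peptide YY, a relative of pancreatic polypeptide. Pdx1, the gene that both genotype labels name, encodes a homeodomain transcription factor that binds A-box elements with a TAAT core in the insulin, Iapp and Sst promoters, and that beta cells need to keep their identity. The ratio of one hormone to another within a library does not depend on how the library is scaled, because both counts share the same factor.

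Promoter sequences were matched for 6 of the 7 genes in RefSeq (GRCm38.p6, 250 bases before to 50 after the transcription start). A set of 4 is printed to show promoters with different numbers of TAAT cores. Whether these numbers bear on the levels was not tested. Capitals mark TAAT on either strand, so the reverse complement ATTA is also in capitals, and overlapping matches are counted separately.
Ins1, chr19:52264047-52264346, plus strand: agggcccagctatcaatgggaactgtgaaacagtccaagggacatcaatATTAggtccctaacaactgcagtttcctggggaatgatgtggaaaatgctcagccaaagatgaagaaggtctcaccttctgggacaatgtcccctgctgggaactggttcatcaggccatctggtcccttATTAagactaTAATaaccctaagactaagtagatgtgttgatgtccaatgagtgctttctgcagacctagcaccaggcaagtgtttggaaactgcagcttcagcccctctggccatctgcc
Iapp, chr6:142298175-142298474, plus strand: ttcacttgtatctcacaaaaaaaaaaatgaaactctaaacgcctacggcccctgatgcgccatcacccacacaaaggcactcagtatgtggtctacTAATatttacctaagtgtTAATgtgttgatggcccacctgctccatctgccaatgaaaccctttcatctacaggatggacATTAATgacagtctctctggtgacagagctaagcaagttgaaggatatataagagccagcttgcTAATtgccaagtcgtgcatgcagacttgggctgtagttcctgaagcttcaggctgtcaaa
Sst, chr16:23890795-23891094, minus strand: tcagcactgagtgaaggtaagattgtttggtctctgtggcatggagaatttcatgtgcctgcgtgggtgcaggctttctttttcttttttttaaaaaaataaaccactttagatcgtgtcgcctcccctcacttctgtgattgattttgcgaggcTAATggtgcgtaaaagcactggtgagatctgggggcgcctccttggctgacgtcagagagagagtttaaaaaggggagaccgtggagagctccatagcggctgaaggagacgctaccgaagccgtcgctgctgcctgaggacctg
Ppy, chr11:102101270-102101569, minus strand: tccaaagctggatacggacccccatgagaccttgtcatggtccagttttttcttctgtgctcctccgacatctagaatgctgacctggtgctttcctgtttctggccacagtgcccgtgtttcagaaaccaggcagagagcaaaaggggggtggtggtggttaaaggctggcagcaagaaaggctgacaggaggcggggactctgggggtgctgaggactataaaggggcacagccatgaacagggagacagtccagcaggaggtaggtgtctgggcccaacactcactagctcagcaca

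The Ins1 promoter holds 3 TAAT matches, of which the nearest to the start begins at position -61, and the Iapp promoter holds 5. The Gcg promoter holds 2, the Sst promoter 1, and the Ppy and Pyy promoters 0. Of all 32851 promoters of this length, 58.0% hold at least 1 match and 6.86% at least 5, so the motif is common. The Sst promoter also holds the full cAMP response element TGACGTCA, at position -48, which 1.79% of all promoters hold on either strand. A match of letters is not a measured binding site, and no binding was measured in these libraries.

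Gene positions are those of RefSeq on GRCm38.p6. Ins1 (chromosome 19, 52264297 to 52265015) and Ins2 (chromosome 7, 142678656 to 142679726) are close paralogs, which bears on how far their reads can be told apart. In the GENCODE M21 transcripts their coding sequences were identical at 300 of 324 aligned positions (92.6%). The longest identical stretch, printed to show how little sequence separates the paralogs at the end of the coding region, was 54 bases.
Ins1 and Ins2 coding sequence, shared: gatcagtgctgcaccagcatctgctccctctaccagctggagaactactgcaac
Only 5 of the 275 windows of 50 bases in the Ins1 coding sequence occurred unchanged in Ins2. Ppy (chromosome 11, 102099931 to 102101319) and Pyy (chromosome 11, 102106676 to 102107832) lie 5356 bases apart on the same strand, and their coding sequences were 53.0% identical, with no shared stretch above 8 bases. Iapp lies on chromosome 6 (142298425 to 142303820), Gcg on chromosome 2 (62474530 to 62483653) and Sst on chromosome 16 (23889573 to 23891342). The printed Sst promoter (23890795 to 23891094) lies wholly inside that Sst span. Its positions therefore refer to a start other than the outer end of the gene. Iapp alone of the 7 overlaps another GENCODE gene, Slco1a5, on the opposite strand, and the sources used here do not say if reads were counted by strand.

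Every hormone gene was lower in each of the 5 mutant libraries than in any control library. This held for 7 of 7 hormone genes, where 14.7% of the 12402 genes tested lay below every control in all mutants. The distance below the control mean ran from 1.54-fold to 318-fold by gene and library, and mutant 2 was the lowest for all 7 genes, followed by mutant 3. With this spread, edgeR's quasi-likelihood test called 0 of the 7 lower at an adjusted p under 0.05, against 11.8% of all genes called lower. Gcg alone had an unadjusted p under 0.05 in that test, and DESeq2 called 6 of the 7, where it called 20.8% of all genes lower.

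**Figure D1:**
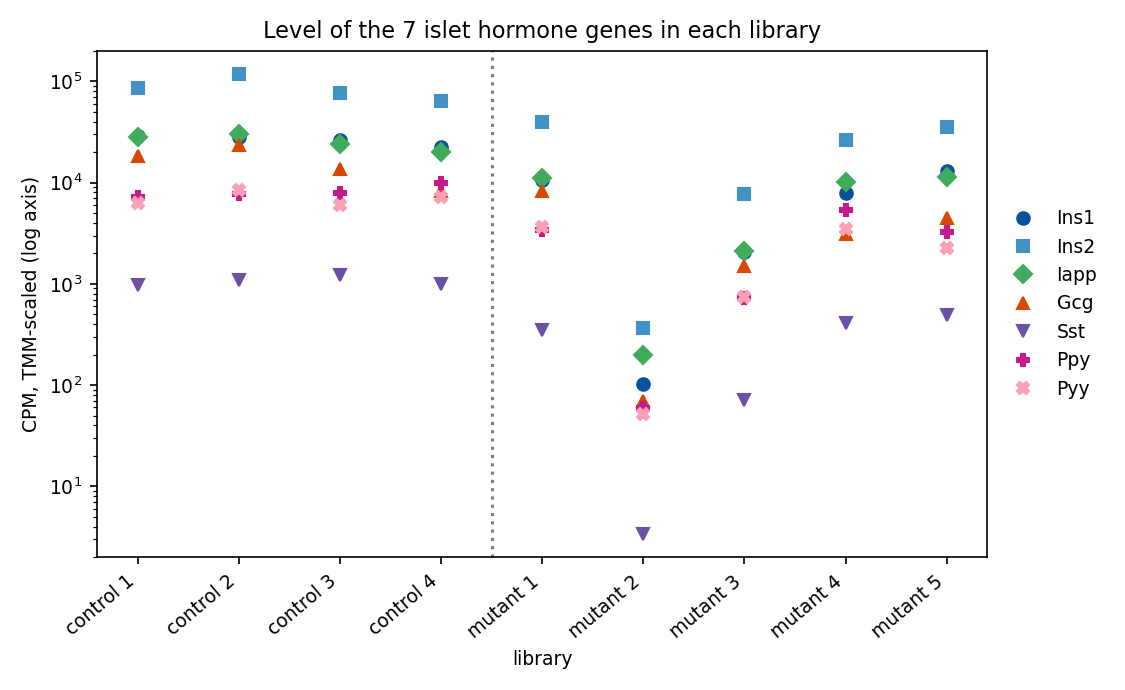
Level of each hormone gene in each library, in CPM (TMM-scaled) on a log axis, with 4 control and 5 mutant libraries and 1 point per gene and library. All 7 genes lie lowest in mutant 2 and next lowest in mutant 3, with Ins2 the highest and Sst the lowest symbol in every library.

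Insulin transcripts came first by level. Ins2 had 85519, 118967, 76205 and 63815 CPM (counts in 1000000 of the TMM-scaled library size) in the controls (1 to 4) against 39462, 370.2, 7727, 26240 and 35077 CPM in the mutants (1 to 5). Ins1 had 28606, 28252, 26237 and 22451 CPM in the controls and 10601, 102, 2049, 7889 and 12979 CPM in the mutants. Iapp, whose product is stored and released with insulin, had 28119, 30406, 24061.5 and 20197 CPM in the controls and 11134, 198, 2087, 10114 and 11362 CPM in the mutants. The groups did not overlap for any of the 3 beta cell hormones, and the mutants spread far more than the controls. The highest mutant library exceeded the lowest 128-fold for Ins1, 107-fold for Ins2 and 57.3-fold for Iapp, against 1.27-fold, 1.86-fold and 1.51-fold among controls.

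The log2 fold change of mutants against controls was -1.97 for Ins1 (SE 0.92, edgeR adjusted p = 0.120), -1.98 for Ins2 (SE 0.93, edgeR adjusted p = 0.123) and -1.88 for Iapp (SE 0.85, edgeR adjusted p = 0.111). Their 95% intervals reached from -4.03 to 0.08, from -4.06 to 0.10 and from -3.78 to 0.02 on the log2 scale. These values passed the test once mutant 2 was left out, at -1.71, -1.72 and -1.62 (edgeR adjusted p = 0.0322, 0.0400 and 0.0365), where the standard errors fell to 0.50, 0.54 and 0.50. In that fit 1629 of 12284 genes were called lower. Mutant 2 was the lowest library for these genes, so leaving it out also drops much of the spread tested.

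The hormones of the other islet cells behaved alike in direction. Gcg had 18521, 23568, 13557 and 8248 CPM in the controls (1 to 4) against 8183, 68.9, 1497, 3111 and 4463 CPM in the mutants (1 to 5). Its groups were barely apart, since mutant 1 lay just under control 4, and it varied the most among controls, 2.86-fold. Sst had 971, 1093, 1225 and 991 CPM in the controls and 349.8, 3.37, 70.7, 413 and 487 CPM in the mutants. In mutant 2 the Sst value rests on 25 counts. Ppy had 7229, 7765, 7942 and 9978 CPM in the controls and 3428, 59.6, 725, 5344 and 3278 CPM in the mutants. Pyy had 6313, 8396, 5994 and 7289 CPM in the controls and 3667, 51.4, 733, 3463 and 2273 CPM in the mutants. Each of the 4 had all mutants below all controls.

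The log2 fold change was -2.20 for Gcg (SE 0.91, edgeR adjusted p = 0.0851, unadjusted p = 0.0360), -2.02 for Sst (SE 0.91, edgeR adjusted p = 0.109), -1.68 for Ppy (SE 0.87, edgeR adjusted p = 0.154) and -1.78 for Pyy (SE 0.84, edgeR adjusted p = 0.121). Without mutant 2, Gcg, Sst and Pyy passed at -1.93, -1.76 and -1.52 (edgeR adjusted p = 0.0256, 0.0225 and 0.0306), and Ppy had -1.43 (edgeR adjusted p = 0.0528). In that fit 1629 of 12284 genes were called lower. Without mutant 1, Gcg passed at -2.81 (edgeR adjusted p = 0.0453), where 1865 of 12198 genes were called lower. With mutants 2 and 3 both left out, edgeR called 7 of 7, with log2 fold changes from -1.64 (Gcg) to -1.09 (Ppy) and adjusted p from 0.00344 (Sst) to 0.0318 (Gcg), where it called 9.78% of all genes lower. Those libraries were the lowest for all 7 genes, so leaving them out removes spread from the very values tested. The SE of Sst fell from 0.91 to 0.19. These calls are therefore no separate support. In bulk RNA, fewer cells of a type and less RNA per cell cannot be told apart.

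Within a library the hormone genes lay below the controls by similar factors. In mutant 2 they lay 130-fold (Iapp) to 318-fold (Sst) below the control mean, and in mutant 3 9.54-fold (Pyy) to 15.1-fold (Sst). In mutant 1 the range was 1.91-fold (Pyy) to 3.06-fold (Sst) and in mutant 5 2.03-fold (Ins1) to 3.58-fold (Gcg). Mutant 4 was the least even, from 1.54-fold for Ppy to 5.13-fold for Gcg. Acinar transcripts moved the opposite way in the same libraries. Of 28 acinar marker genes 26 rose and 0 fell, where 20.6% of all genes tested were called higher and 11.8% lower. Their summed level was 31838 to 54464 CPM of the unscaled totals in controls and 151143 to 271226 in mutants, with none at 0. Their part in the hormone values was not tested. Of 8 endothelial markers 0 rose and 0 fell, and they summed to 44.3 to 190 CPM (controls) and 4.47 to 86.8 (mutants), with Cdh5, Kdr, Flt1 and Emcn at 0 counts in mutant 2. Of 7 stellate cell markers tested 2 fell (11.8% of all genes), at 49.5 to 127 CPM (controls) and 1.96 to 175 (mutants), with 5 of the list, Col1a1 among them, at 0 in mutant 2. Macrophage markers, of which 0 of 8 passed, summed to 70.6 to 533 and 300.2 to 523, with Lyz2 and C1qb at 0 in mutant 2. Ductal markers, of which 4 of 10 rose and 1 fell, summed to 1562 to 7801 and 2833 to 5105.

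The summed levels of beta and of delta cell markers other than the hormones did not overlap between groups. Of 12 beta cell markers tested 4 fell and 0 rose (11.8% of all genes lower, 20.6% higher), and the list summed to 2391 to 3233 CPM of the unscaled totals (controls) and 162 to 1214 (mutants), with Nkx6-1 and Gjd2 at 0 counts in mutant 2. Of 4 delta cell markers tested 3 fell, against the same share of all genes, with sums of 233 to 393 and 11.7 to 152.

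Per kilobase of transcript, Ins2 was the most abundant hormone transcript in all 9 libraries and Sst the least. Control means were 180181 ± 49434 CPM per kilobase for Ins2, 30627 ± 5373 for Iapp, 24846 ± 2659 for Ins1, 16457 ± 2411 for Ppy, 14682 ± 6043 for Gcg, 12609 ± 1951 for Pyy and 1484 ± 161 for Sst (SD, n = 4). Ppy stood above Pyy in all 9 libraries, and the place of Gcg beside them changed from library to library. By counts alone Pyy exceeded Ppy in control 2, mutant 1 and mutant 3. The order of Ppy and Pyy there rests on the annotated transcript lengths, 500 bases for Ppy and 555 for Pyy. The place of Ins1 depends on its annotated end, since the GENCODE transcript runs 461 bases past the RefSeq gene. With that stretch taken off, which was not done for Iapp (141 bases past RefSeq), Ins1 had 43904 ± 4698 CPM per kilobase (SD, n = 4), above Iapp. In mutants the means were 45555 ± 35707 CPM per kilobase for Ins2 and 367 ± 298 for Sst (SD, n = 5).

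The mix of hormone transcripts varied far less between libraries than their sum. Of the counts of the 7 genes together, the mean share of Ins2 was 50.1% ± 2.95 (controls, SD, n = 4) against 48.6% ± 3.65 (mutants, SD, n = 5). In the same order Ins1 held 15.8% ± 1.90 and 14.4% ± 2.47, and Iapp 15.2% ± 0.901 and 17.2% ± 3.71. Gcg held 9.07% ± 2.12 and 8.13% ± 2.24, Ppy 5.07% ± 1.74 and 6.09% ± 2.13, Pyy 4.20% ± 0.865 and 5.02% ± 1.16, and Sst 0.647% ± 0.141 and 0.550% ± 0.152. Each of these pairs of means differed by less than the spread within the mutants. The hormones of cells other than beta cells together made 19.0% ± 0.644 (controls, SD, n = 4) and 19.8% ± 2.75 (mutants, SD, n = 5) of hormone counts.

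**Figure D2:**
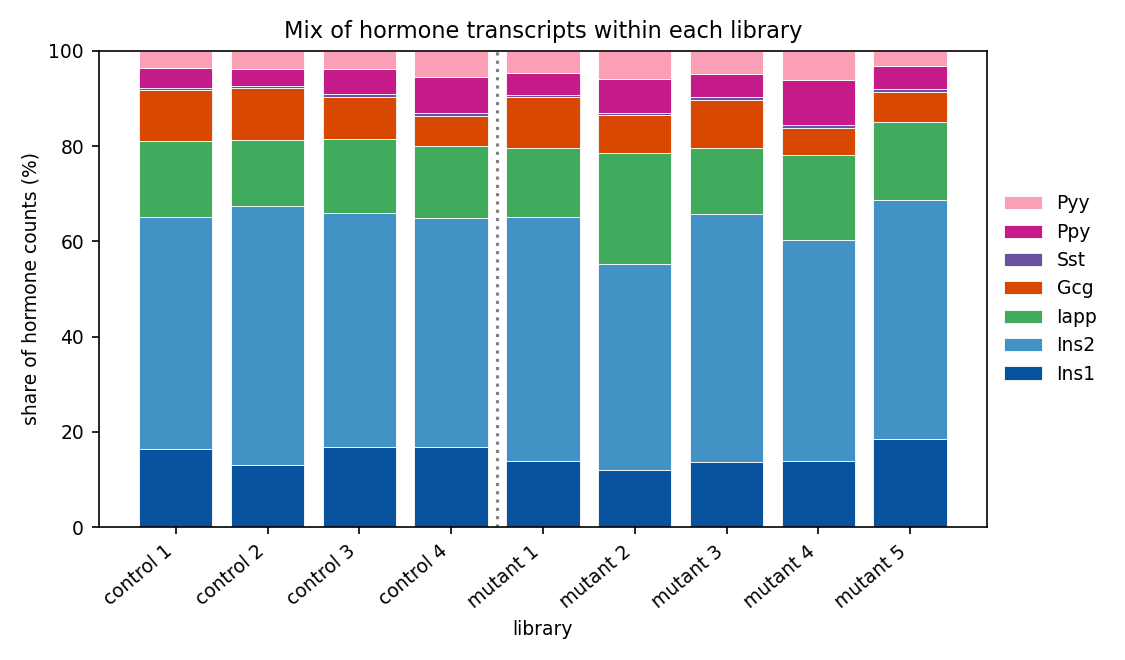
Share of each hormone gene in the summed counts of the 7 genes, in percent, 1 bar per library, with 4 controls and 5 mutants. The bars look alike although the hormone counts behind them run from 21.05% of the library in control 1 to 0.0691% in mutant 2, and the widest departure is Iapp, at 23.2% in mutant 2.

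Mutant 2 held 6330 hormone counts, which sets the precision of its mix. There Ins2 held 43.4% of hormone counts (95% Wilson interval 42.2% to 44.6%, for counting error only, since no molecular identifiers are stated), Iapp 23.2% (22.2% to 24.3%) and Sst 0.395% (0.268% to 0.582%). Iapp held 13.9% to 16.04% in the 4 controls and 14.0% to 17.9% in the other 4 mutants. Mutant 2 was thus the library with the most Iapp among its hormone counts.

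All 21 ratios between pairs of hormone genes were compared between groups, to ask whether the balance of hormones differed. None of the 21 was called different between mutants and controls by exact two-sided permutation of the group labels (0 called, 0% of the family), also with 0 at an unadjusted p under 0.05. The lowest exact p was 0.135, for Sst:Ppy (Benjamini-Hochberg p over the 21 pairs = 0.718), and the smallest p this design allows is 0.00794. A single ratio at that p would have an adjusted value of 0.167 over the 21 pairs, so no ratio could have been called alone. In all 21 pairs the groups overlapped. A p that misses the threshold does not show equal ratios, so the 95% interval of each difference, found by inverting the same exact test, is given beside it.

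**Figure D3:**
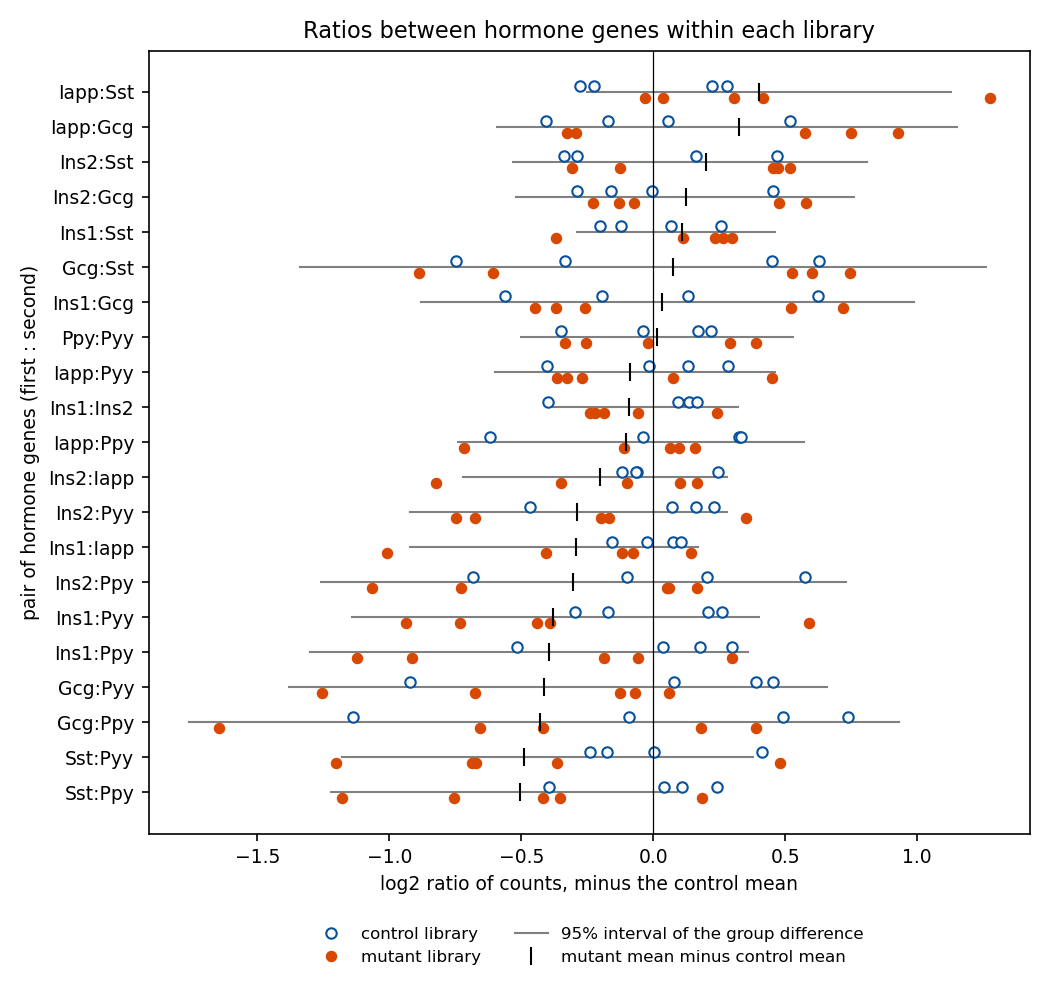
Log2 ratio of counts for the 21 pairs of hormone genes (vertical axis), minus the control mean of that pair (horizontal axis, log2). Open circles are 4 control and filled circles 5 mutant libraries, the tick is the mutant mean minus the control mean and the grey line its 95% interval, and every interval crosses 0.

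The ratio of the insulin paralogs overlapped between groups. The Ins1 to Ins2 count ratio was 0.334, 0.237, 0.344 and 0.352 in the controls (1 to 4) against 0.269, 0.275, 0.265, 0.301 and 0.370 in the mutants (1 to 5). Both groups span nearly the same range, with the lowest value in control 2 and the highest in mutant 5. The mutant mean log2 ratio was lower by 0.09 than the control mean (exact permutation p = 0.524), with an interval from -0.38 to 0.32. Over all 9 libraries this ratio varied 1.56-fold, the least of the 21 pairs, where the levels of Ins1 and Ins2 varied 281-fold and 321-fold.

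The balance of insulin and amylin stood apart most in mutant 2. The Ins2 to Iapp count ratio was 3.04, 3.91, 3.17 and 3.16 in the controls (1 to 4) against 3.54, 1.87, 3.70, 2.59 and 3.09 in the mutants (1 to 5). Mutants 1, 3 and 5 lay within the control range and mutants 2 and 4 below it. The log2 difference was -0.20 (exact permutation p = 0.405), with an interval from -0.72 to 0.28.

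Ratios of Ins2 to the hormones of other cells also overlapped between groups. Over the 9 libraries Ins2:Gcg varied 1.83-fold and Ins2:Sst 1.81-fold, less than Ins2:Iapp at 2.09-fold. Ins2:Pyy varied 2.14-fold and Ins2:Ppy 3.12-fold. The Ins2 to Gcg count ratio was 4.62, 5.05, 5.62 and 7.74 in the controls (1 to 4) against 4.82, 5.37, 5.16, 8.43 and 7.86 in the mutants (1 to 5) (log2 difference 0.13, interval -0.52 to 0.76, exact permutation p = 0.643). The Ins2 to Sst ratio was 88.0, 109, 62.2 and 64.4 in the controls and 113, 109.8, 109, 63.5 and 72.1 in the mutants (log2 difference 0.20, interval -0.53 to 0.81, exact permutation p = 0.421). Low and high values occurred in both groups. The Ins2 to Ppy ratio was 11.8, 15.3, 9.60 and 6.40 in the controls and 11.5, 6.21, 10.7, 4.91 and 10.7 in the mutants (log2 difference -0.30, interval -1.26 to 0.73, exact permutation p = 0.437). The Ins2 to Pyy ratio was 13.5, 14.2, 12.7 and 8.75 in the controls and 10.8, 7.21, 10.5, 7.58 and 15.4 in the mutants (log2 difference -0.29, interval -0.92 to 0.28, exact permutation p = 0.278).

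Among the hormones of the smaller cell populations, Ppy and Pyy stayed closest. Their count ratio was 1.14, 0.925, 1.33 and 1.37 in the controls (1 to 4) against 0.935, 1.16, 0.988, 1.54 and 1.44 in the mutants (1 to 5), a log2 difference of 0.02 with an interval from -0.50 to 0.53 (exact permutation p = 0.952). Gcg:Ppy varied the most of all pairs, 5.21-fold over the 9 libraries, from 0.582 in mutant 4 to 3.04 in control 2. Controls alone ran from 0.827 to 3.04, so that spread does not separate the groups. Over the 21 pairs the SD of the log2 ratio across libraries was 0.22 to 0.80 with a median of 0.46, while the SD of the log2 CPM of the 7 genes was 2.34 to 2.72.

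Hormone counts were also set against endocrine genes that encode no hormone, to compare them with other transcripts of the same cells. The reference was the summed count of 19 genes of granules, exocytosis and endocrine transcription, among them chromogranins (Chga, Chgb), secretogranins and convertase 2 (Pcsk2). A sum gives most weight to the genes with most counts, such as Chgb (69976 of 200685 reference counts in control 1). The reference held 2.48% to 3.35% of counts in controls and 0.0149% to 1.32% in mutants. For each reference count there were 6.39, 8.25, 7.20 and 5.05 hormone counts in the controls (1 to 4) against 6.05, 4.64, 6.39, 5.59 and 7.84 in the mutants (1 to 5). The groups overlapped over nearly their whole range. None of the 7 hormone genes was called different between groups in its ratio to the reference (0 called, 0% of the family; exact permutation, 0 at an unadjusted p under 0.05, lowest p = 0.286 for Sst). Pyy was the steadiest, at 0.230, 0.317, 0.278 and 0.277 counts per reference count in the controls and 0.289, 0.280, 0.315, 0.342 and 0.255 in the mutants (log2 difference 0.11, interval -0.15 to 0.37, exact permutation p = 0.381). The interval for Ins2 ran from -0.79 to 0.39 around -0.18 and that for Gcg from -1.13 to 0.67 around -0.31. With the mean of log2 reference counts in place of the sum, all 7 differences were negative, from -0.58 (Sst) to -0.08 (Ppy). Ins2 was then at -0.38 and Gcg at -0.50. Here too a single ratio could not have been called, since its adjusted value would be at least 0.0556. Against markers of their own cell type in place of this reference, the log2 differences were -1.11 for Ins1, -1.01 for Ins2, -0.81 for Iapp and -1.06 for Sst, where the endocrine reference gave -0.28, -0.18, 0.02 and -0.38. Without mutant 2, an alternative chosen after seeing the data, they were -0.27, -0.20, -0.16 and -0.32.

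**Figure D4:**
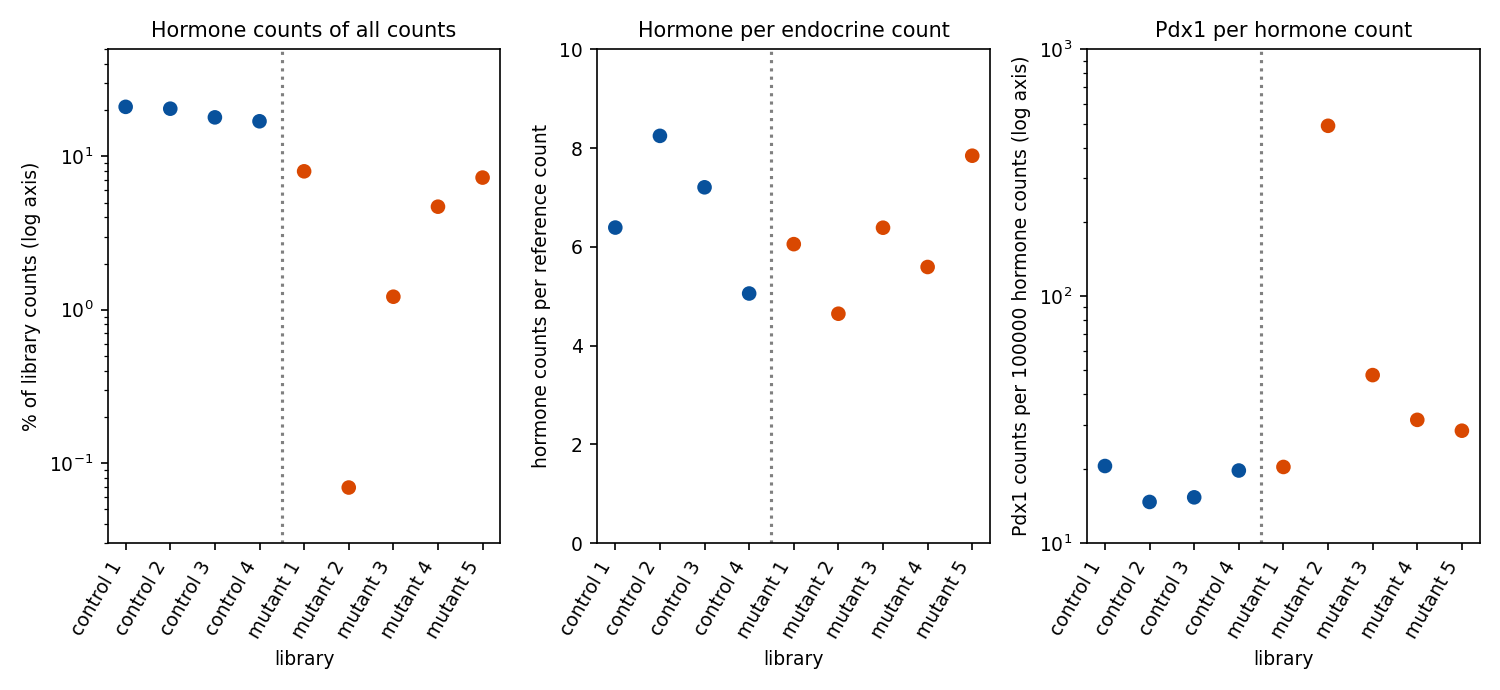
Left, hormone counts as a percent of all counts (log axis); middle, hormone counts per count of the 19 endocrine reference genes; right, Pdx1 counts per 100000 hormone counts (log axis), with 4 control and 5 mutant libraries as single points. Mutants 2 and 3 stand low on the left at 0.0691% and 1.21%, are at 4.64 (the lowest, with control 4 next at 5.05) and 6.39 in the middle, and stand high on the right at 490 and 47.9.

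In mutants 2 and 3 Pdx1 lay less far below the controls than the hormone genes did. Its counts were 263, 219, 203 and 234 in the controls (1 to 4) against 129, 31, 47, 122 and 149 in the mutants (1 to 5). Against the control mean CPM, Pdx1 was 7.06-fold lower in mutant 2 and 4.14-fold lower in mutant 3, where Ins2 was 233-fold and 11.1-fold lower. Per 100000 hormone counts there were 20.5, 14.7, 15.3 and 19.7 Pdx1 counts in the controls and 20.3, 490, 47.9, 31.5 and 28.5 in the mutants. Mutant 1 lay within the control range and the other 4 mutants above it. Its log2 fold change was -1.19 (SE 0.40, edgeR adjusted p = 0.0461).

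Genes whose levels ran most nearly parallel to the hormones were sought among 8309 other genes whose log2 CPM averaged 3 or more, by the SD over the 9 libraries of their log2 distance from the mean of the 7 hormone genes. The 10 closest were Scg2 (secretogranin 2, a granule core protein; SD 0.19, Pearson r = 0.998 over 9 libraries), Ptprn (a granule membrane protein; SD 0.20), Epb4.1l3, Slc7a14, Enpp2, Resp18 (a granule protein), Neurod1 (a transcription factor that activates insulin genes), Kcnmb2 (a potassium channel subunit), Chga and B830017H08Rik (SD 0.25). Scg2, Ptprn, Neurod1 and Chga are also in the endocrine reference. These values are a description, since the libraries share scaling and depth. They rest on mutants 2 and 3, because with those libraries left out 0 of the 10 genes remained among the closest 10. Measured the same way against the mean of the other 6, Ins2 had an SD of 0.20 (2 of the 8309 genes closer), Iapp 0.24, Ins1 0.26, Pyy 0.33, Sst 0.36, Ppy 0.44 and Gcg 0.52 (87 genes closer).

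Single hormones had different nearest genes. Those of Iapp were Tmem27, Nell1 and Scg3 (SD 0.17, 0.18 and 0.19), and those of Pyy were Neurod1, Scg5 and Chgb (SD 0.19, 0.20 and 0.21). Meg3, an imprinted noncoding RNA gene, was nearest to Ins1 (SD 0.23) and to Sst (SD 0.34), Resp18 to Ins2 (SD 0.22), St18 to Gcg (SD 0.32) and Adam22 to Ppy (SD 0.22).

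Genes that process prohormones were uneven. Of 14 tested members of this list 5 fell and 1 rose, with a median log2 fold change of -1.28, where 11.8% of all genes were called lower and 20.6% higher, with a median of 0.04. Below every control in all mutants lay 9 of the 14, against 14.7% of all genes. Pcsk2, named after its values were seen, was not called (edgeR adjusted p = 0.129). It spread widely, at 1417, 15.8, 254, 768 and 830 CPM in the mutants (1 to 5). Pcsk1, a convertase that cuts proinsulin, named for this role and after its values were seen, had 292, 263, 281 and 234 CPM in the controls (1 to 4) against 133, 24.0, 40.8, 135 and 119 in the mutants (1 to 5) (log2 fold change -1.57, edgeR adjusted p = 0.0279). Pam, which amidates peptides such as amylin, fell by 2.36 (edgeR adjusted p = 0.00525), and Ero1lb, an oxidase of disulfide formation, by 0.99 on the log2 scale (edgeR adjusted p = 0.00356). The member that rose was Ctsl, a lysosomal protease, from 590 ± 84.4 CPM (SD, n = 4) to 2961 ± 993 (SD, n = 5; edgeR adjusted p = 0.00172), in the libraries with more acinar transcripts, and the part of these was not tested.

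Of 23 tested transcription factors that act on hormone genes 9 fell and 2 rose (11.8% of all genes lower, 20.6% higher), with a median log2 fold change of -1.49. Crem, a cAMP-responsive factor, had 144, 191, 163 and 133 CPM in the controls (1 to 4) against 57.6, 31.8, 46.3, 51.8 and 49.4 in the mutants (1 to 5) (log2 fold change -1.73, edgeR adjusted p = 0.00147). Its mutants lay close together, unlike the hormones, but it was named for the lowest p of the list, which favours a small spread. Other factors of the list spread widely among the mutants (1 to 5). Neurod1 had 158, 1.75, 29.9, 133 and 111 CPM there and Pax6 138, 2.02, 22.3, 79.1 and 81.9. These 2 examples were picked after their values were seen. Meis2 and Rfx3 fell by 0.70 and 2.51 on the log2 scale (edgeR adjusted p = 0.0108 and 0.0114), and Foxa2, a factor of endoderm, rose by 0.47 (edgeR adjusted p = 0.0233). Rfx3 was at 83.1 CPM in control 2 and at 13.9 to 21.3 in the other controls. Mafa, an activator of insulin genes named after its values were seen, was at 0 counts in every control and at 1 count in mutants 2 and 5, and whether its counting was complete was not tested.

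Receptors for these hormones and their relatives were uneven too. Of 13 tested, 5 fell and 2 rose, where 11.8% of all genes were lower and 20.6% higher (median log2 fold change -1.50). Igf1r, the insulin-like growth factor 1 receptor, had 202, 234, 168 and 187 CPM in the controls (1 to 4) against 98.8, 53.8, 66.4, 44.9 and 52.3 in the mutants (1 to 5) (log2 fold change -1.64, edgeR adjusted p = 0.00232). Sstr1, a somatostatin receptor, fell by 2.78 and Calcrl by 1.14 on the log2 scale (edgeR adjusted p = 0.0138 and 0.0249). The levels of Sstr1 were low, at 2.81 to 6.29 CPM in controls and 0 to 1.20 in mutants. Ramp1, a partner protein of calcitonin family receptors, rose by 2.86 (edgeR adjusted p = 0.0269), and its level was 109 and 84.9 CPM in mutants 2 and 3 against 8.49 to 13.9 in mutants 1, 4 and 5.

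Of 14 other islet peptide genes tested, 5 fell and 2 rose, the latter no larger a share than the 20.6% of all genes called higher, with 11.8% lower (median log2 fold change -1.59). Npy, which encodes neuropeptide Y, a relative of Ppy and Pyy, had 3.28, 5.12, 10.7 and 6.37 CPM in the controls (1 to 4) against 54.0, 77.6, 76.6, 131 and 14.9 in the mutants (1 to 5). All mutants lay above all controls for Npy, the reverse of Ppy and Pyy, as they did for 2295 of the 12402 genes tested. The log2 fold change of Npy was 3.47 (SE 0.59, edgeR adjusted p = 0.00387). Nmb, which encodes neuromedin B, rose by 2.40 (edgeR adjusted p = 0.0170), at low levels of 0.410 to 1.12 CPM in controls and 1.21 to 6.74 in mutants. Cartpt, a neuropeptide precursor of islet endocrine cells and nerves, and Trh, which encodes thyrotropin-releasing hormone, fell by 4.28 and 2.88 on the log2 scale (edgeR adjusted p = 0.00185 and 0.0135), both with under 1.1 CPM in every mutant.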

How the data were processed

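Polyadenylated RNA of islets from male mice was measured in 4 control and 5 mutant libraries, grouped by sample title. The authors deposited raw counts per gene symbol, without normalization. Per the submitters' processing notes, the project used STAR, Bowtie2, RSEM, Cell Ranger, HOMER, DESeq2, Signac, Seurat and R 4.1.0 with the mouse build mm10. The sources used here do not say which of these made the counts.

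The members, gene lists and tests were chosen with earlier results of these data known. Counts were fitted with edgeR 4.0.16 in R 4.3.3 (filterByExpr, 12402 genes, TMM scaling, quasi-likelihood test, Benjamini-Hochberg over all genes, threshold 0.05, two-sided). The SE is the log2 fold change divided by the square root of F. Log2 CPM used a prior count of 2. Ratios were log2 ratios of raw counts with a pseudocount of 0.5, tested by exact permutation of the group means (two-sided). Intervals are 95%. Named genes were the 7 members, Pdx1, the 10 genes nearest to the members' mean and the 3 nearest to each, and up to 4 genes of lowest p per list. All 207 list entries were found, 3 under an older symbol. Alternatives were RLE scaling, scaling without hormone and acinar genes, other filters, the replicate number as a block, DESeq2 1.42.0, limma-voom (limma 3.58.1) with quality weights, and leaving out libraries. The edgeR script was tested on simulated data. It recovered 12% of the 2-fold and 63% of the 4-fold changes put in, and 2.60% of its calls were unchanged genes. Changes of such sizes can thus be missed. The list of alpha cell markers is not reported here.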

Additional observations from a re-analysis of the deposited data

Results flagged for a closer look

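Of 70 groups of values examined (7 levels, 21 ratios and 7 ratios to the endocrine reference, in each genotype), 3 held a library far from the rest, where chance gives about 1 in 20. The log2 Ins1:Ins2 ratio of control 2 was -2.07, while the other controls lay between -1.58 and -1.51. The log2 Ins2:Iapp ratio of control 2 was 1.97, against 1.60 to 1.66 in the other controls, and both ratios share Ins2. Control 2 also had 9214 counts of Isl1, a gene chosen here after its values were seen, against 2049 to 2237 in the other controls. The log2 Ins1:Sst ratio of mutant 4 was 4.25, below 4.74 to 4.92 in the other mutants.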

How the results depend on the processing

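The log2 fold changes of the 7 hormone genes stayed negative in all 17 alternatives run for each, between -3.34 and -1.09. They passed the test in DESeq2 at -2.08 (Ins1), -2.09 (Ins2), -1.99 (Iapp), -2.30 (Gcg), -2.12 (Sst) and -1.88 (Pyy), and in limma-voom for Gcg alone, at -2.77. DESeq2 called 2555 of 12291 genes lower and limma-voom 2294 of 12402. Without mutants 2 and 3 they passed at -1.64 (Gcg), -1.42 (Sst), -1.40 (Ins2), -1.38 (Ins1), -1.29 (Iapp), -1.21 (Pyy) and -1.09 (Ppy). That fit called 1229 of 12571 genes lower. It leaves out the libraries lowest for all 7 genes, so it is no separate support. Leaving out 1 library gave -2.35 to -1.71 for Ins1, -2.31 to -1.72 for Ins2, -2.12 to -1.62 for Iapp, -2.81 to -1.93 for Gcg, -2.35 to -1.76 for Sst and -2.11 to -1.52 for Pyy.

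Among all genes edgeR called 2560 higher and 1462 lower, and 1579 to 2702 higher and 699 to 1865 lower when 1 library was left out (lowest without mutant 3 for higher calls, at 1579 and 900, and without control 1 for lower calls, at 1678 and 699). Calls were 2555 lower in DESeq2, 2294 lower in limma-voom and 1355 higher without mutants 2 and 3. RLE scaling shifted the median by -0.10 and gave 51.8% of calls higher, against 63.6%, DESeq2 gave 49.6% and leaving out mutants 2 and 3 52.4%. The cause of these changes was not tested.

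The 4 replicate numbers shared by both groups gave no sign of pairing libraries (correlation of deviations 0.05, -0.02, 0.18 and -0.05, and no control matched its own number best). This does not exclude a pairing. With the replicate number as a block edgeR called 1658 genes higher and 774 lower and 0 of the 7 hormone genes. The exact sign-flip permutation test of ratios over these numbers cannot go below p = 0.125.

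No alternative called a ratio between hormones or to the reference, but this says little, since the smallest exact permutation p is 0.0179 or 0.0286 with 1 control or 1 mutant left out. Of 294 values of the 21 ratios 22 changed sign. Ins1:Pyy and Sst:Pyy had the lowest exact permutation p, 0.0286 without mutant 5, the smallest possible there. Their overlap between groups thus rested on mutant 5. Ins1:Pyy was 3.08 to 4.53 in controls and 1.98 to 2.89 in mutants 1 to 4. Sst:Pyy was 0.130 to 0.204 in controls and 0.0656 to 0.119 in mutants 1 to 4. The lowest Benjamini-Hochberg p of the family in any alternative was 0.292, for Ins2:Pyy with the replicate block. Ins2:Ppy had 0.000997 by medians and Ppy:Pyy -0.0867 by medians, -0.0542 with the replicate block and -0.10 to 0.10 without single libraries. To the reference, the mean of log2 counts gave -0.18 (Iapp), -0.0762 (Ppy) and -0.0914 (Pyy), the replicate block -0.0632 for Iapp, and own cell type markers -0.81 for Iapp (-0.16 with mutant 2 left out, an alternative chosen after seeing the data), -1.11 for Ins1, -1.01 for Ins2 and -1.06 for Sst. Without single libraries Iapp ran from -0.11 to 0.0841 and Ppy from -0.0269 to 0.21. Depth limits Sst most, at 25 counts in mutant 2.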

Other observations

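Of the 11 ratios that involve Gcg or Sst, 5 fell into separate ranges that cut across the genotypes. Gcg:Sst was 19.1 and 21.6 in controls 1 and 2 and 23.4, 20.4 and 21.2 in mutants 1 to 3, against 11.1 and 8.32 in controls 3 and 4 and 7.53 and 9.17 in mutants 4 and 5. Ins1:Gcg followed the same division, at 1.54, 1.199, 1.30, 1.48 and 1.37 in the first set and 1.94, 2.72, 2.54 and 2.91 in the second, as did Ins2:Gcg, whose highest value in the first set was 5.37 and whose lowest in the second was 5.62, and Ins2:Sst, whose lowest value in the first set was 88.0 and whose highest in the second was 72.1. Iapp:Sst was at least 27.8 in the first set and at most 24.5 in the second. The other 6 (Ins1:Sst, Iapp:Gcg, Gcg:Ppy, Gcg:Pyy, Sst:Ppy and Sst:Pyy) overlapped between the sets. Ppy:Pyy, which involves neither Gcg nor Sst, was divided too, at 0.925 to 1.16 in the first set and 1.33 to 1.54 in the second. The 5 ratios share the counts of Gcg or Sst, so they are not separate observations. These sets were seen in the data and are no groups of the study, so they were not compared further.

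Beta cell transcripts other than the hormones did not all follow Ins2. Against the control mean CPM, mutant 2 was 123-fold lower in G6pc2, 131-fold in Slc30a8 and 161-fold in Ucn3, genes of glucose metabolism, granule zinc transport and the urocortin 3 peptide. It was 16.6-fold lower in Entpd3 and 2.17-fold in Ero1lb, and the latter was 1.54-fold to 2.18-fold lower in all 5 mutants. Ero1lb made up 79.1% of the beta cell marker counts of mutant 2 and 46.4% of those of mutant 3, against 11.9% to 15.997% in controls. With the beta cell markers as reference, Ins2 had a log2 difference of -1.01 between groups (exact permutation p = 0.333), and of -0.20 without mutant 2 (exact permutation p = 0.400). These genes were named after their values were seen.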
